A study of Canis lupus familiaris with 6 samples.

Results

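The nuclear genes of respiratory complexes II to V were compared between 3 libraries of cells kept under hypoxia and 3 of cells kept under normoxia. All 6 came from CMM10, a line grown from a malignant melanoma of a dog, so the results describe 1 cell line. Neither the oxygen level nor the length of the incubation is stated. Nothing says that the replicates were separate cultures, so p-values measure only the spread between these libraries, which may be technical. The genes were the rows of the deposited tables outside the mitochondrial chromosome whose symbols belong to succinate dehydrogenase (SDHA to SDHD and SDHAF), complex III (UQC and CYC1), cytochrome c oxidase (COX) or ATP synthase (ATP5), leaving out the subunit 4 isoforms COX4I1 and COX4I2. This gave 43 of 29822 genes, with 6 in complex II, 10 in complex III, 16 in complex IV and 11 in complex V. They lie on 24 chromosomes. In the RefSeq gene table of another dog assembly, 12 symbols of these families matched no row name. Among them are SDHD, UQCRH, UQCR11, ATP5PO, ATP5MC2 and ATP5MC3, which were not analysed here. Also among them are ATP5MJ and ATP5MK, newer symbols of the members ATP5MPL and ATP5MD. The complex IV subunits COX6A1, COX6B1, COX6C, COX7A2, COX7B and COX7C are not among those symbols, and they too matched no row name. The complex IV results therefore cover only part of its nuclear subunits. Complexes II, III and V are covered in part too, without SDHD, UQCRH and ATP5PO among others.

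These complexes carry out the oxygen-using end of energy metabolism. Complex II takes electrons from succinate in the TCA cycle, complex III passes them from ubiquinol to cytochrome c, complex IV passes them from cytochrome c to oxygen, and complex V, ATP synthase, uses the resulting proton gradient to make ATP. Complex II is encoded wholly in the nucleus, whereas complexes III, IV and V combine nuclear subunits with a few encoded on mitochondrial DNA. All depend on nuclear assembly factors, some of which insert heme, copper or iron-sulphur centres into complexes II, III or IV. In many mammalian tumour cells hypoxia-inducible factors are known to favour glycolysis over respiration.

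The libraries held 23196647 to 28804337 gene reads. The 5 hypoxia control genes rose (log2 fold changes of 1.80 to 4.64), among them CA9 (3.77 ± 0.042): this carbonic anhydrase, induced by hypoxia-inducible factors, was at 408.8 ± 4.84 CPM in hypoxia and 29.9 ± 1.00 CPM in normoxia libraries (SD, n = 3 each). Of 9 melanocyte markers, 7 passed the count filter (MITF, SOX10, DCT, PMEL, MLANA, EDNRB and KIT), while TYR and TYRP1 did not. Summed TPM of the melanocyte markers was 156.1 to 169.6 in hypoxia and 148.6 to 163.7 in normoxia libraries. Among markers of other cell types, 4 keratinocyte genes summed to 906.1 to 1068 TPM in hypoxia and 266.5 to 271.9 TPM in normoxia libraries, with KRT14 at 949 TPM in hypoxia and 193 TPM in normoxia libraries, and 6 fibroblast genes to 2837 to 2931 TPM in hypoxia and 2172 to 2303 TPM in normoxia libraries, nearly all of it COL1A2. The 4 endothelial genes summed to 4.37 to 4.63 TPM in hypoxia and 3.04 to 3.54 TPM in normoxia libraries, and the 4 leukocyte genes to at most 1.04 TPM in any library, with PTPRC at 0.058 TPM in hypoxia and 0.026 TPM in normoxia libraries and CD3E at 0 reads in hypoxia and 2 in normoxia in all. Their part in the changes described here was not tested. Mitochondrially encoded genes held 3.27% ± 0.060 of gene reads in hypoxia and 4.56% ± 0.054 in normoxia libraries (SD, n = 3 each, two-sided exact permutation p = 0.1, the smallest that 3 against 3 can give).

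Most members were modestly lower under hypoxia. Of the 43 members, 39 had enough reads to be tested, and 23 of these were called lower and 2 higher (quasi-likelihood test of edgeR, with p-values adjusted by Benjamini-Hochberg over 15397 genes and called below 0.05). Across all genes tested, 24.4% were called lower and 24.5% higher, 49% in either direction. In bulk RNA, fewer cells of a kind and less RNA per cell cannot be told apart. The median log2 fold change of hypoxia over normoxia was -0.17 in the members, a fall of 11.4%, against 0.00 in all genes tested. No member changed by more than 1 on the log2 scale in either direction: the range was -0.50 (UQCC3) to 0.49 (COX7A1), and 9 members were lower by over 20%. The CPM values of the groups did not overlap in 24 members that were lower and 2 that were higher under hypoxia, where all genes tested gave 27.5% lower and 27.8% higher. The members were better measured than most genes, with a median level of 83.4 CPM and a median SE of 0.052 (log2), against 23.7 CPM and 0.076 in all genes tested, and the part of this precision in the share called was not tested. When libraries were scaled by size alone, 26 members were called lower and 0 higher, and among all genes 38.8% of calls were higher, against 50.1% with TMM scaling.

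**Figure D1:**
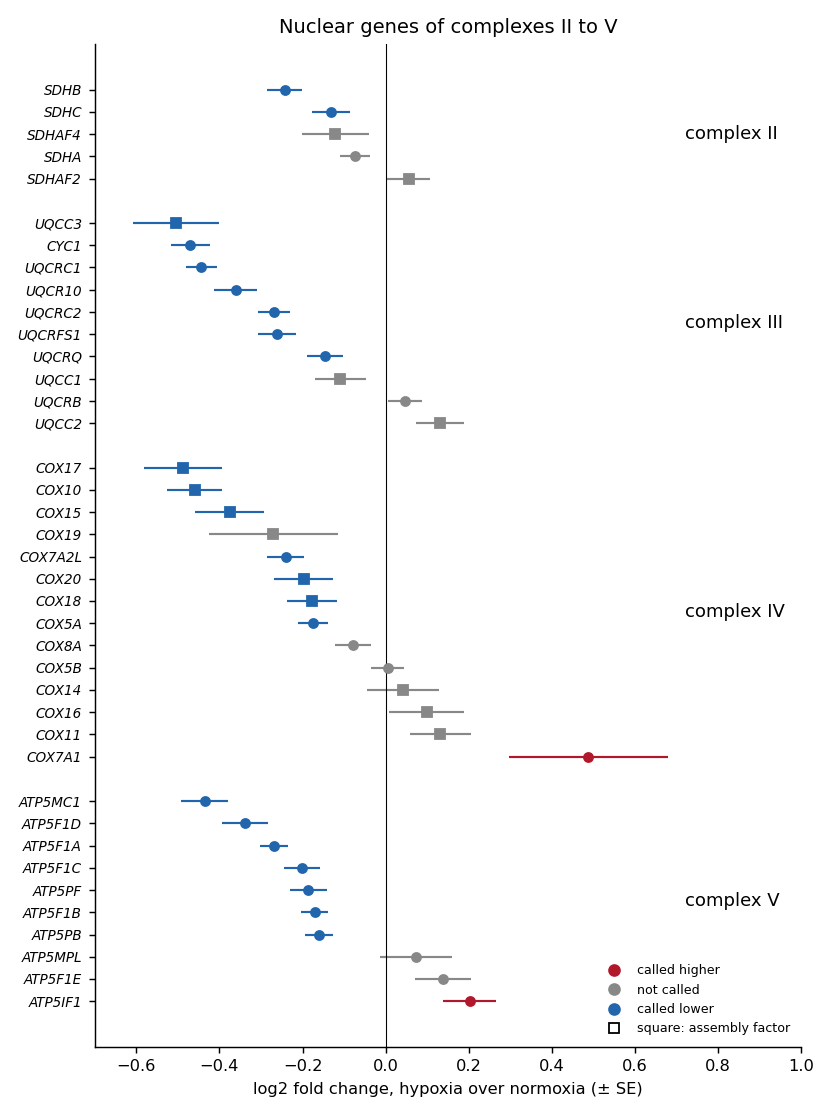
Log2 fold change of hypoxia over normoxia (x axis, ± SE) for the 39 tested members, grouped by complex, with assembly factors as squares. Blue and red mark members called lower and higher by edgeR at an adjusted p below 0.05 with 3 libraries per group, and grey those not called. The 23 blue points lie between -0.50 and -0.13, and the 2 red points are COX7A1 and ATP5IF1.

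The complexes differed in how many of their members were called: 2 of 5 tested members were lower in complex II, 7 of 10 in complex III, 7 of 14 in complex IV and 7 of 10 in complex V. Called lower were thus 40%, 70%, 50% and 70% in that order, against 24.4% of all genes tested. Median log2 fold changes were -0.12, -0.26, -0.18 and -0.18 in that order. These differences between complexes were not tested. By role, 17 of 25 tested subunits and related proteins (68%) and 6 of 14 tested assembly factors (42.9%) were called lower. Their medians were -0.17 and -0.15.

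Complex II, succinate dehydrogenase, had 2 subunits that fell and no assembly factor that passed the test. The iron-sulphur subunit SDHB (chromosome 2, 81158291 to 81190109, CanFam3.1 build) had 86.7, 84.6 and 86.7 CPM in the hypoxia libraries, against 101, 101 and 103 CPM in the normoxia libraries. Every hypoxia library was below every normoxia library, and SDHB fell by 0.24 (log2, SE 0.042, edgeR adjusted p = 1.27e-05). Uniquely mapped reads were 76.6% of its reads, so part of its value may belong to other copies of the sequence, and unique exon-exon reads gave a fall of 0.19. The membrane anchor SDHC (chromosome 38, 21162421 to 21200333) had 94.7, 92.8 and 89.96 CPM in hypoxia and 97.7, 109 and 97.2 CPM in normoxia libraries. The groups came close without overlapping, and SDHC fell by 0.13 (SE 0.046, edgeR adjusted p = 0.0181). That call was lost without hypoxia replicate 3 (-0.11) or normoxia replicate 2 (-0.08). The flavoprotein SDHA (chromosome 34, 11935941 to 11965189), which oxidises succinate, had 181, 179 and 182 CPM in hypoxia and 198, 187 and 186 CPM in normoxia libraries. All 3 hypoxia values were lower, but the change of -0.07 ± 0.037 did not pass the test (edgeR adjusted p = 0.0972). It passed without normoxia replicate 3 (-0.09) and when scaled by library size alone (-0.14), and was -0.045 without normoxia replicate 1, with no call.

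Of the complex II assembly factors, SDHAF2, which helps attach FAD to SDHA, changed by 0.06 ± 0.052, and SDHAF4, which acts on SDHA before it meets SDHB, by -0.12 ± 0.080. Neither passed the test. SDHAF1, which serves iron-sulphur insertion into SDHB, had 0 reads in all 6 libraries, which allows up to 0.106 to 0.126 CPM per library at 3 reads (counting error only). Its single-exon model lies wholly inside that of an unnamed protein-coding gene on the opposite strand, to which 591.5 reads per library were assigned on average. The library kit does not mark strand, so reads of these genes cannot be told apart.

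In complex III, 6 of 7 subunits fell, and none rose. Cytochrome c1, CYC1 (chromosome 13, 37590912 to 37593156), the heme subunit that hands electrons to cytochrome c, had 141, 133 and 124 CPM in hypoxia and 176, 197 and 178 CPM in normoxia libraries. The highest hypoxia value was well below the lowest normoxia value, and CYC1 fell by 0.47 (SE 0.047, edgeR adjusted p = 1.42e-08). The core protein UQCRC1 (chromosome 20, 40506907 to 40520110), a structural subunit on the matrix side, had 160.3, 153 and 151 CPM in hypoxia and 216, 209.9 and 205 CPM in normoxia libraries. The groups were far apart, and UQCRC1 fell by 0.44 (SE 0.037, edgeR adjusted p = 1.12e-11). Its model overlaps that of COL7A1 by 733 bases, and unique exon-exon reads gave a fall of 0.43. The Rieske iron-sulphur protein UQCRFS1 (chromosome 1, 122035197 to 122037759), which takes the first electron from ubiquinol, had 77.4, 82.3 and 83.4 CPM in hypoxia and 100.3, 93.1 and 97.8 CPM in normoxia libraries. The groups did not overlap, and UQCRFS1 fell by 0.26 (SE 0.045, edgeR adjusted p = 1.35e-05). The second core protein UQCRC2 (-0.27 ± 0.039) and the small membrane subunits UQCR10 (-0.36 ± 0.052) and UQCRQ (-0.15 ± 0.044) also fell.

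The exception among the complex III subunits was UQCRB (chromosome 29, 40742338 to 40747930), which helps to bind ubiquinone and had the highest mean TPM of the complex's members, though not the highest CPM. It had 154, 147 and 139.6 CPM in hypoxia and 144, 146 and 136 CPM in normoxia libraries. The groups overlapped, and the change of 0.05 ± 0.042 did not pass the test (edgeR adjusted p = 0.38). The 3 assembly factors that serve cytochrome b, the mitochondrially encoded core of the complex, gave unlike values. UQCC3 (chromosome 18, 53984771 to 53985422) had 13.1, 13.5 and 9.86 CPM in hypoxia and 16.03, 18.1 and 17.7 CPM in normoxia libraries. All hypoxia values were lower, that of replicate 3 lowest, and UQCC3 fell by 0.50 (SE 0.10, edgeR adjusted p = 1.51e-04), the lowest log2 fold change of any tested member. UQCC1 (-0.11 ± 0.062) and UQCC2 (0.13 ± 0.058) did not pass the test. UQCC1 was called lower from exon reads only (-0.19) and when scaled by library size alone (-0.18), and was -0.067 without normoxia replicate 2, with no call. UQCC2 was called higher without normoxia replicate 1 (0.18), and was 0.064 when scaled by library size alone, with no call.

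**Figure D2:**
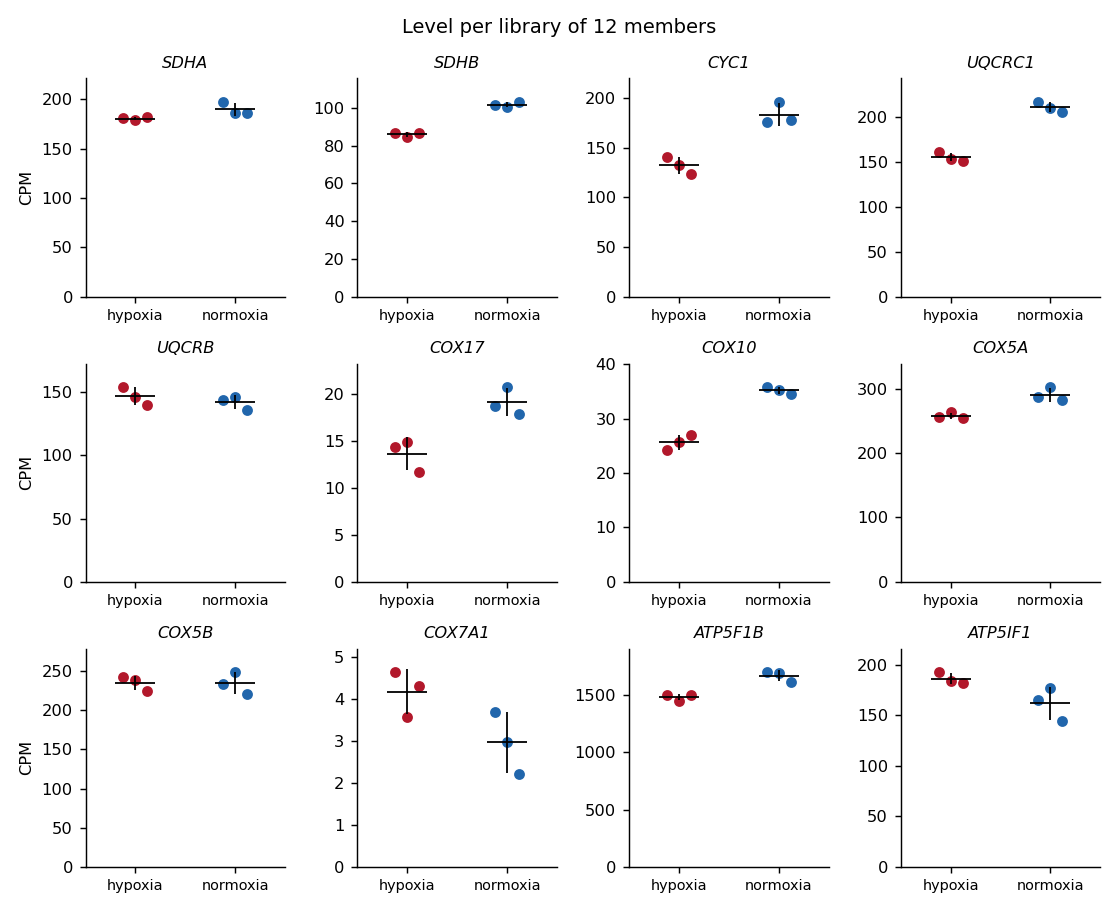
CPM (y axis, TMM-scaled, each panel from 0) of 12 members in the 3 hypoxia (red) and 3 normoxia (blue) libraries, with the mean and SD in black. CYC1, UQCRC1, COX17 and COX10 show wide gaps between the groups, UQCRB and COX5B overlap, and ATP5IF1 lies higher under hypoxia.

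Among the complex IV members, the 3 lowest log2 fold changes were those of factors for the copper and heme A centres of the complex. The copper chaperone COX17 (chromosome 33, 23305085 to 23313064) had 14.4, 14.9 and 11.7 CPM in hypoxia and 18.8, 20.8 and 17.9 CPM in normoxia libraries. The groups did not overlap, and COX17 fell by 0.49 (SE 0.095, edgeR adjusted p = 6.39e-05). COX10 (chromosome 5, 37852875 to 37982243), the farnesyltransferase that begins heme A synthesis, had 24.2, 25.7 and 27.1 CPM in hypoxia and 35.8, 35.4 and 34.5 CPM in normoxia libraries. It fell by 0.46 (SE 0.066, edgeR adjusted p = 5.43e-07), with no overlap. COX15 (chromosome 28, 12610401 to 12624087), the heme A synthase that completes the pathway, had 15.8, 15.5 and 14.4 CPM in hypoxia and 20.6, 19.4 and 19.3 CPM in normoxia libraries. The groups were apart here too, and COX15 fell by 0.38 (SE 0.083, edgeR adjusted p = 3.12e-04). These are the enzymes of heme A synthesis, and both fell. The other copper factors among the members did not pass the test. COX19 changed by -0.27 ± 0.15 at a level near 5 CPM. Its model overlaps that of ADAP1 by 6673 bases on the same strand, and 76.3% of its reads were unique. COX11, which inserts copper into the catalytic subunit, changed by 0.13 ± 0.074. The COX11 model overlaps that of TOM1L1 by 17818 bases on the opposite strand, and 86.35% of its reads were unique. Of the copper factors outside the members, named here after their values were seen, SCO2 fell (-0.46 ± 0.098). SCO1 (-0.13 ± 0.058) and COA6 (-0.0004 ± 0.094) did not pass the test. COX11 was called higher without hypoxia replicate 3 (0.19), and was 0.079 without hypoxia replicate 2 and 0.065 when scaled by library size alone, with no call.

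Of the factors that insert or guard the mitochondrially encoded subunit MT-CO2, COX18 (-0.18 ± 0.060) and COX20 (-0.20 ± 0.071) were called lower and COX16 (0.10 ± 0.091) was not. The COX18 call was lost without hypoxia replicate 1 (-0.155), without normoxia replicate 1 (-0.153) and from exon-exon reads only (-0.154). COX20, with 72.3% of its reads in introns, had overlapping groups, and its call was lost without hypoxia replicate 2 (-0.15), hypoxia replicate 3 (-0.15) or normoxia replicate 2 (-0.19), and from exon and exon-exon reads (-0.13 and -0.16), while without hypoxia replicate 1 the change was -0.30. COX14, which acts with the newly made catalytic subunit, changed by 0.04 ± 0.086 and did not pass the test. The tables count 62.8% of its reads as intron reads although its model is a single exon of 174 bases, so that column also holds reads outside the annotated exon.

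Of the 5 tested subunits and subunit-like members of complex IV, 2 fell and 1 rose. COX5A (chromosome 30, 37905827 to 37968111), which binds no metal, had 255, 263 and 254 CPM in hypoxia and 286, 302 and 283 CPM in normoxia libraries. The groups did not overlap, and COX5A fell by 0.17 (SE 0.035, edgeR adjusted p = 1.13e-04). Its 62285-base model covers parts of SCAMP2, MPI and FAM219B, and unique exon-exon reads gave a fall of 0.21. The zinc-binding subunit COX5B (chromosome 10, 44979654 to 44991703) had 242, 239 and 225 CPM in hypoxia and 234, 249 and 221 CPM in normoxia libraries. These values overlapped, with a change of 0.00 ± 0.040 (edgeR adjusted p = 0.939). In a comparison made after the values were seen, COX5A stood at 72.1, 73.9 and 77.8 TPM per 100 TPM of COX5B in hypoxia libraries, against 87.9, 87.6 and 89.7 in normoxia libraries. The small membrane subunit COX8A (chromosome 18, 53048902 to 53050528), the member of the complex with the highest TPM, had 146, 144 and 134 CPM in hypoxia and 154, 155 and 139 CPM in normoxia libraries. The groups overlapped, and the change of -0.08 ± 0.044 did not pass the test (edgeR adjusted p = 0.144). Its model is overlapped along its length by NAA40 and MACROD1, and 65.1% of its reads were unique. It was called lower from unique gene reads (-0.11), without normoxia replicate 3 (-0.13) and when scaled by library size alone (-0.14). Without hypoxia replicate 3 the change was -0.044, with no call. COX7A2L, which joins complexes III and IV in supercomplexes, fell (-0.24 ± 0.045).

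COX7A1 (chromosome 1, 116547282 to 116548917), the heart and muscle isoform of a small complex IV subunit, rose from a low level. It had 4.64, 3.58 and 4.31 CPM in hypoxia and 3.70, 2.98 and 2.22 CPM in normoxia libraries, from 345 reads in hypoxia and 233 in normoxia in all. The lowest hypoxia value was below the highest normoxia value, and the rise of 0.49 ± 0.19 passed the test narrowly (edgeR adjusted p = 0.0342). The call was lost without hypoxia replicate 1 (0.40) or 3 (0.46), without normoxia replicate 2 (0.48) or 3 (0.32), by DESeq2 (0.49) and when scaled by library size alone (0.42), the edgeR and DESeq2 adjusted p ranging from 0.0115 to 0.203 over the 15 alternatives. Other tissue-restricted isoforms were near 0: the muscle isoform COX6A2 had 13 reads and the testis isoform COX7B2 2 reads over all 6 libraries, and neither was tested.

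In complex V, genes of the catalytic head, of both stalks and of the rotor ring fell. The catalytic subunit beta, ATP5F1B (chromosome 10, 870392 to 909161), had 1502, 1454 and 1498 CPM in hypoxia and 1703, 1696 and 1618 CPM in normoxia libraries. It had the highest TPM of all members, its groups did not overlap, and it fell by 0.17 (SE 0.032, edgeR adjusted p = 4.45e-05). The ATP5F1B model spans 38770 bases with 28 exons, and 20.4% of its reads were intron reads. How far this wide model shapes its level was not tested. Subunit alpha, ATP5F1A (chromosome 7, 45117657 to 45127048), its partner in the head, had 577, 559 and 576 CPM in hypoxia and 704, 696 and 663 CPM in normoxia libraries. The groups were apart, and ATP5F1A fell by 0.27 (SE 0.033, edgeR adjusted p = 3.61e-08). The central stalk subunit delta, ATP5F1D (chromosome 20, 57547371 to 57549722), had 179, 176 and 152 CPM in hypoxia and 203, 219.9 and 219 CPM in normoxia libraries. All hypoxia values were lower, that of replicate 3 lowest, and ATP5F1D fell by 0.34 (SE 0.055, edgeR adjusted p = 1.51e-04). Its model lies inside SBNO2 on the opposite strand, and unique exon-exon reads gave a fall of 0.36. A subunit c gene of the rotor ring, ATP5MC1 (chromosome 9, 25123241 to 25127909), had 83.9, 83.4 and 78.1 CPM in hypoxia and 116, 118 and 98.3 CPM in normoxia libraries. The groups did not overlap, and ATP5MC1 fell by 0.44 (SE 0.057, edgeR adjusted p = 2.88e-06), the lowest change of the complex. The central stalk subunit gamma, ATP5F1C (-0.20 ± 0.043), and the peripheral stalk subunits ATP5PB (-0.16 ± 0.034) and ATP5PF (-0.19 ± 0.044) also fell.

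The inhibitor of the enzyme went the other way. ATP5IF1 (chromosome 2, 72188266 to 72191326), a small protein that blocks ATP hydrolysis by the complex, had 193, 184 and 182 CPM in hypoxia and 165, 177 and 144 CPM in normoxia libraries. Every hypoxia value was above every normoxia value, and ATP5IF1 rose by 0.20 ± 0.063 (edgeR adjusted p = 0.022). The call was lost without hypoxia replicate 1 (0.18), 2 (0.21) or 3 (0.22) and when scaled by library size alone (0.14). It held from unique exon-exon reads (0.24) and without normoxia replicate 3, where the change was 0.12, the adjusted p ranging from 7.02e-07 to 0.0836 over the 15 alternatives. Set against the catalytic subunit in each library, a ratio chosen after the values were seen, ATP5IF1 stood at 47.4, 47.5 and 45.3 TPM per 100 TPM of ATP5F1B in hypoxia libraries, against 34.99, 38.1 and 32.8 in normoxia libraries. The remaining small subunits that could be tested did not pass: epsilon, ATP5F1E, changed by 0.14 ± 0.068 and the membrane proteolipid ATP5MPL by 0.07 ± 0.087. ATP5F1E was called higher without hypoxia replicate 3 (0.18), without normoxia replicate 1 (0.19) and from exon-exon reads only (0.25). Without normoxia replicate 3 and when scaled by library size alone it was 0.073 each, with no call. ATP5MD had 4 reads in all 6 libraries in a single-exon model and was not tested.

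**Figure D3:**
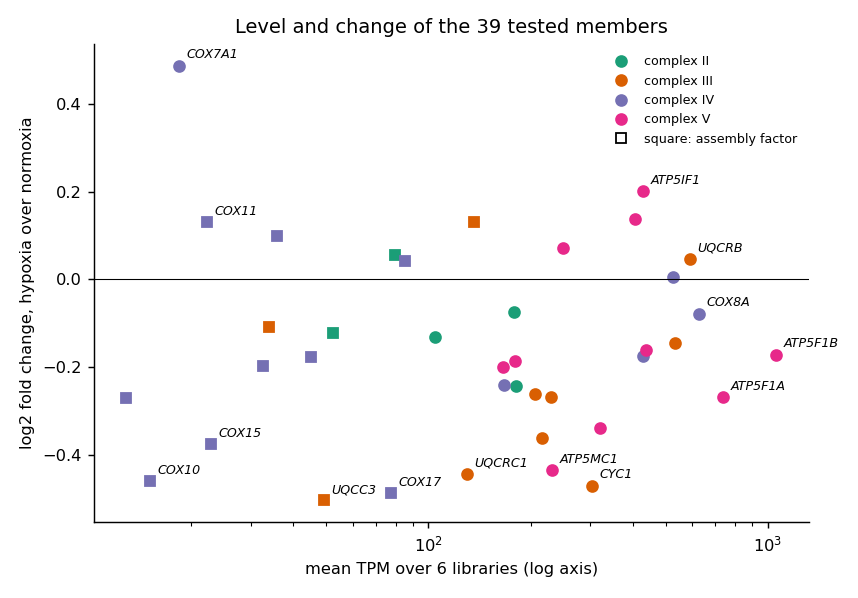
Mean TPM over the 6 libraries (x axis, log scale) against the log2 fold change of hypoxia over normoxia (y axis) for the 39 tested members, coloured by complex, with assembly factors as squares. Members that fell are found at all levels, with COX10 among the lowest and ATP5F1B at the highest TPM. COX7A1 and ATP5IF1, which were called higher, lie above 0, as do other members that were not called.

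Levels per exon length differed widely within a complex, as the deposited TPM show. These are scaled to a fixed sum without TMM factors and are given here as mean ± SD (n = 3 each). Among the complex V members, ATP5F1B led with 978 ± 14.7 TPM in hypoxia and 1138 ± 17.8 TPM in normoxia libraries. ATP5F1A followed with 663 ± 10.5 TPM in hypoxia and 815 ± 11.8 TPM in normoxia libraries. The lowest tested member was ATP5F1C with 154 ± 1.68 TPM in hypoxia and 179 ± 0.87 TPM in normoxia libraries. The order in between differed by condition. ATP5IF1 was at 457 ± 8.24 TPM in hypoxia and 402 ± 32.0 TPM in normoxia libraries, and ATP5PB was at 411 ± 5.32 TPM in hypoxia and 465 ± 15.6 TPM in normoxia libraries. All hypoxia values of ATP5IF1 were above those of ATP5PB, and all its normoxia values were below them.

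Among the complex III members UQCRB was highest with 594 ± 23.6 TPM in hypoxia and 585 ± 9.72 TPM in normoxia libraries. UQCRQ followed with 500.2 ± 14.9 TPM in hypoxia and 562 ± 8.88 TPM in normoxia libraries. The values of these neighbours did not overlap in either condition. The core protein UQCRC1 was at 109 ± 2.34 TPM in hypoxia and 151 ± 3.21 TPM in normoxia libraries. In complex II, SDHB was at 166 ± 2.08 TPM in hypoxia and 198 ± 2.87 TPM in normoxia libraries and SDHA at 172 ± 2.17 TPM in hypoxia and 186 ± 4.99 TPM in normoxia libraries. SDHB was thus below SDHA in every hypoxia library and above it in every normoxia library. The gaps were small, and 76.6% of SDHB reads were unique against 99.98% for SDHA, so which gene is higher cannot be told. Among the complex IV members COX8A was highest with 607 ± 23.1 TPM in hypoxia and 649 ± 24.0 TPM in normoxia libraries, with 65.1% of its reads unique. COX4I1, left out of the members, was above it at 756 ± 17.5 TPM in hypoxia and 773 ± 17.2 TPM in normoxia libraries. The heme A enzyme COX10 was at 12.5 ± 0.93 TPM in hypoxia and 17.8 ± 0.42 TPM in normoxia libraries.

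Summed over its members, each complex had a lower total in every hypoxia library than in any normoxia library. Complex II summed to 576.9, 561.7 and 566.5 TPM in hypoxia libraries, against 629.9, 625.0 and 623.0 TPM in normoxia libraries, a ratio of 0.908. Complex III summed to 2264, 2278 and 2198 TPM in hypoxia libraries, against 2614, 2630 and 2575 TPM in normoxia libraries, a ratio of 0.862. Complex IV summed to 2051, 2059 and 1959 TPM in hypoxia libraries, against 2212, 2265 and 2148 TPM in normoxia libraries, a ratio of 0.916. Complex V summed to 4021, 3980 and 3921 TPM in hypoxia libraries, against 4519, 4480 and 4395 TPM in normoxia libraries, a ratio of 0.890. These sums cover only the nuclear genes counted here, without COX4I1, the mitochondrially encoded subunits and the symbols that matched no row, so they do not rank the complexes. They are given as a description, with no test.

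**Figure D4:**
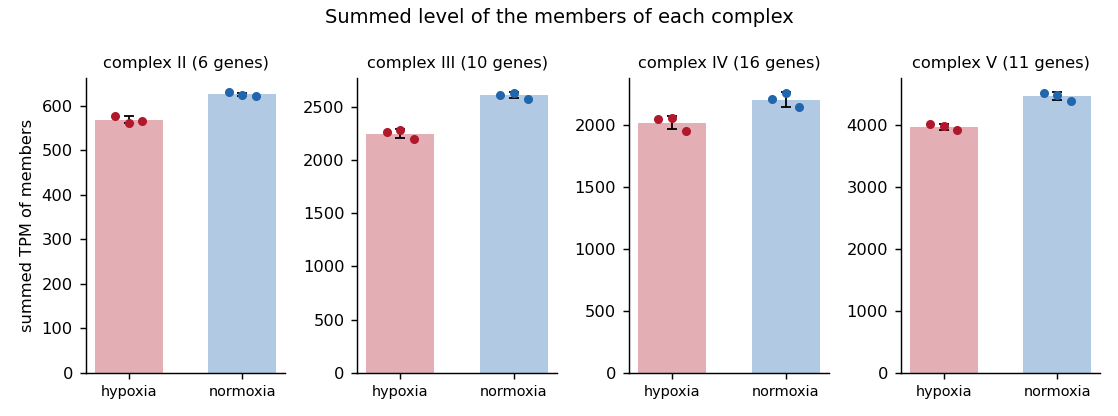
Summed TPM (y axis, each panel from 0) of the members of each complex in the 3 hypoxia (red) and 3 normoxia (blue) libraries, with bars at the mean and error bars of 1 SD. In each complex all hypoxia libraries lie below all normoxia libraries, with ratios of means from 0.862 in complex III to 0.916 in complex IV.

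The number of calls changed little with the class of read. Of the 39 tested members 31 had at least 99% uniquely mapped reads. The models of 13 tested members overlap another annotated gene, 8 of them called. From exon reads only, 23 members were called lower and 2 higher, with a median of -0.18. Among all 13458 genes tested on exon reads, 3200 were called lower and 3281 higher. From unique exon-exon reads, which leave out the single-exon COX14, 21 of 38 members were called lower and 3 higher, with a median of -0.16. All 11249 genes tested on those reads gave 2450 lower and 2547 higher.

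**Figure D5:**
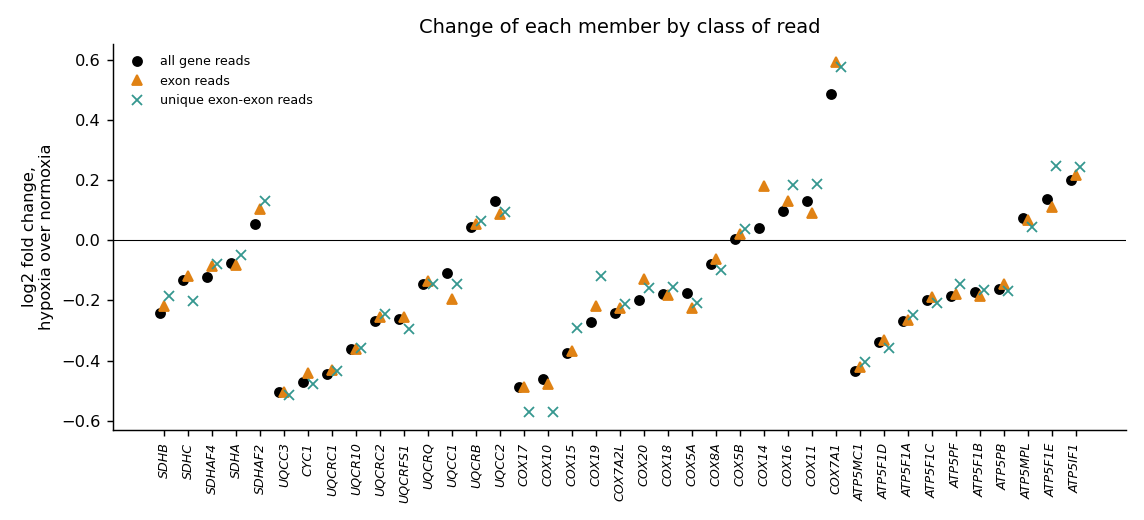
Log2 fold change of hypoxia over normoxia (y axis) of each tested member from all gene reads (black), exon reads (orange) and unique exon-exon reads (green crosses), ordered by complex and change. The 3 classes keep the same sign for every member with values in all 3, and COX14, which has 1 exon, has no green cross.

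The partners of these genes were counted for comparison, where all genes tested gave 24.4% lower and 24.5% higher. Of the 6 mitochondrially encoded mRNAs of complexes III to V, 5 fell and 0 rose, with a median of -0.35. MT-CYB, the catalytic core of complex III, was at 1125 ± 39.6 CPM in hypoxia and 2232 ± 36.0 CPM in normoxia libraries (-0.99 ± 0.033), and MT-ATP6, the proton channel of ATP synthase, changed by -0.38 ± 0.034. Nuclear complex I genes (NDUF) gave 29 of 37 lower and 1 higher, with a median of -0.20. The 1 higher gene was NDUFA4L2 (4.11 ± 0.25), a known hypoxia-induced relative of a complex IV subunit. Whether these sets differ from the members was not tested.

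Of the other genes of the pathway, again counted by list, 27 were assembly and translation factors of complexes II to V. Of these, 9 fell (33.3%) and 4 rose (14.8%), with a median of -0.12, where all genes tested gave 24.4% lower and 24.5% higher. LRPPRC, which stabilises mitochondrial mRNAs, was at 264.7 ± 2.92 CPM in hypoxia and 384.1 ± 7.73 CPM in normoxia libraries (-0.54 ± 0.034), and CEP89, a centrosomal protein also linked to complex IV, rose (1.65 ± 0.054). Among 18 other subunits, carriers and genes of the ubiquinone pool, 11 fell (61.1%) and 4 rose (22.2%), with a median of -0.16. Besides NDUFA4L2, DMAC2L, a coupling protein of ATP synthase once named ATP5S, rose by 0.65 ± 0.13. Cytochrome c, CYCS, named here after its value was seen, was at 184.8 ± 1.88 CPM in hypoxia and 264.1 ± 4.64 CPM in normoxia libraries (-0.52 ± 0.035). Of 17 tested regulators of respiratory genes, 8 fell (47.1%) and 4 rose (23.5%), with a median of -0.03. The coactivator PPRC1 changed by -0.82 ± 0.053 and the matrix protease LONP1 rose by 1.38 ± 0.038. The shares called higher among the carriers and the regulators were near that of all genes tested. PPARGC1A was below the count filter. Of the subunit 4 isoforms, COX4I2 rose (1.60 ± 0.12) and COX4I1 did not pass the test (-0.05 ± 0.034).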

How the data were processed

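RNA of CMM10 cells was sequenced as poly(A)-selected, paired-end NEBNext Ultra II libraries, per the labels' protocols, a kit that does not mark strand. The deposited files, 1 per library, hold read counts for each gene, with separate columns for exon, intron and exon-exon reads and for unique against total reads, per the file headers, and TPM values made by the authors, per the file headers. The build is CanFam3.1, per the submitters' processing notes. The sources used here name no aligner or counting tool.

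Total gene reads were filtered (filterByExpr), scaled by TMM and tested by edgeR's quasi-likelihood test (robust) without covariates on 15397 genes, with the threshold at 0.05 after Benjamini-Hochberg adjustment. CPM were divided by TMM-scaled totals. The common dispersion gave a coefficient of variation of 4.76%. Gene reads of 23196647 to 28804337 per library limit precision mainly for low genes. The procedure was tested on simulated data. The smallest change simulated was larger than that of many members called here, so the simulation does not cover those calls. The gene symbol groups, lists and roles were chosen with earlier results of these data known. Values in every library are printed, per complex, for the up to 3 called members of lowest and of highest fold change in either sign (mean of at least 1 CPM), the member of highest TPM, every member that rose, and SDHA, SDHB, CYC1, UQCRFS1, UQCRC1, COX5A, COX5B, ATP5F1A and ATP5F1B. In the other gene lists the 2 called genes of largest change are named. The software was Python 3.11.15, matplotlib 3.10.9, R 4.3.3 with data.table (1.17.8), DESeq2 1.42.0, edgeR 4.0.16 and limma 3.58.1. Alternatives were exon reads, unique reads, exon-exon reads (total and unique, added after the data were seen), other scalings, DESeq2, no filter, the replicate block and leaving out each library.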

Additional observations from a re-analysis of the deposited data

How the results depend on the processing

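Of the 25 called members, 20 kept their call under all 15 alternatives, all of them lower under hypoxia. The other 5 were SDHC, COX18, COX20, COX7A1 and ATP5IF1, and 6 uncalled members were called under at least 1 alternative; the cause was not tested. No pairing of the libraries is stated. Same-numbered libraries deviated from their group means with correlations of -0.087, 0.046 and -0.053, which with 3 libraries per group cannot decide whether they were paired. With the replicate block, 23 members were called lower and 2 higher, and 3793 genes lower and 3769 higher. When libraries were scaled by size alone, 0 members were called higher, 0 in complex IV and 0 in complex V, the median change of all genes moved by -0.07, and COX5B (-0.061), SDHAF2 (-0.011), COX14 (-0.024) and UQCRB (-0.02) changed sign without passing the test. By DESeq2, 1 member was called higher, 0 in complex IV. From total and from unique exon-exon reads 2 members of complex V were called higher each, and 2459 and 2450 genes were called lower among 11288 and 11249 tested, fewer than the 15397 tested on gene reads. Leaving out each library in turn gave 21 to 25 members lower and 0 to 4 higher, 1 to 3 lower in complex II, and higher calls of 0 to 1 in complex III, 0 to 1 in complex IV and 0 to 2 in complex V. COX5B then ranged from -0.039 to 0.047 and ATP5MPL from -0.028 to 0.17. Read depth limits COX19 and COX7A1, at 782 and 578 reads over the 6 libraries.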
